A study of Mus musculus with 6 samples.

Results

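The Ifi200 or PYHIN family is a group of interferon-inducible genes that lie side by side in the mouse genome, and its members here were Ifi202b, Ifi203, Ifi204, Ifi205, Mnda, Aim2 and Pyhin1. They were looked up in the probe annotation of the array, in rows that name a single gene, also under an older or newer symbol. Of the 7 members, 5 had such a row, out of 22180 genes with a row of their own in the whole series. A row stands for a transcript cluster, the group of probes for 1 transcription unit. Mean level over the arrays was to decide between several rows of a gene, but no member had more than 1 row of its own, so rows were chosen by name alone and none was selected on a measured value. The family itself was taken up with results of these arrays known, so its values are given as a description. Pyhin1 was found as Ifi209, its RefSeq symbol. Ifi203 and Mnda (RefSeq symbol Ifi211) appeared only in rows shared with other symbols, and these rows are described as shared throughout.

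RNA came from BV-2 cells, a mouse microglial line immortalised by a retrovirus carrying raf and myc oncogenes, so every group is the same transformed line. There were 3 arrays of resting control cells and 3 of cells given LPS of Escherichia coli O111:B4, a bacterial cell wall component, at 1 µg/mL for 24 h, all in medium low in serum. The hour of collection of the controls is not given in the sources used here. Values were log2 expression values from Affymetrix whole-transcript arrays, and nothing in the labels says that replicates came from separate cultures. Every p-value therefore rests on array-to-array spread that may be technical, and precision is limited by having 3 arrays per group.

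PYHIN proteins combine a pyrin domain, which binds other pyrin domains, with HIN domains, which bind DNA, and some members lack either part. AIM2 senses double-stranded DNA in the cytosol and recruits the adaptor ASC (Pycard) and caspase-1 into an inflammasome, which matures interleukin 1 beta and opens gasdermin D pores. In macrophages and microglia, LPS acts through TLR4 to induce interferon beta, and secreted interferon then acts on genes that carry the interferon-stimulated response element (ISRE) in their promoters.

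Array medians lay between 2.88 and 2.97 in all 6 arrays, and upper quartiles ran from 4.85 in control replicate 2 to 5.27 in LPS replicate 3. Among 10893 genes above the background guide, control replicate 2 was lower than the mean of the other controls by a median log2 difference of -0.36. The background guide was the 95th percentile, 3.08, of the mean levels of 1445 rows for chemosensory receptor genes (olfactory, vomeronasal and taste). Of 11 macrophage or microglia marker genes with a row, 10 had a mean above this guide, with Cd68 at 10.8, Cx3cr1 at 3.70 and P2ry12 at 3.65, while Tmem119 lay below it at 2.68. Of 7 lymphocyte markers 1 was above the guide, and Ms4a1 was at 1.89, and these marker genes were picked as examples after their values were seen. None of the macrophage or lymphocyte markers passed adjusted p 0.05 in limma, and at an unadjusted p under 0.05 1 macrophage marker was higher and 2 were lower, and 0 lymphocyte markers in either direction. The summed log2 level of the macrophage or microglia markers ran from 73.5 to 76.7 in controls and from 71.7 to 76.9 with LPS, and that of the lymphocyte markers from 17.3 to 17.8 and from 16.9 to 17.2. Above the guide were 0 of 4 astrocyte, 1 of 4 neuron, 0 of 3 oligodendrocyte and 0 of 4 fibroblast or endothelial markers.

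All 14 family genes in RefSeq (GRCm38.p6) follow each other on 1 chromosome with no protein-coding gene of another family between them. Promoter windows from RefSeq, from 250 bases before to 50 bases after a start site, were held for 12 of these genes, in 14 windows, and not for Ifi204 and Ifi203-ps. The core of the ISRE, searched as GAAANNGAAA on both strands, was present in 10 of the 14 windows, in 9 of the 12 genes, and in 3.44% of all 32851 windows. Within it, the exact run GAAATCGAAA was found in 16 windows of the genome (0.0487%), and 7 of these belonged to the family. The run GAAATTGAAA was found in 38 windows (0.116%), of which 2 were those of Ifi205 and Ifi211. Both runs were picked because at least 2 family windows held them, so their presence in the family was fixed by this choice. No family window held the kappaB consensus, searched on both strands, which 4.51% of all windows held. Family windows share descent, so their matches are not independent, and a match is a run of letters and not a measured binding site.

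Windows are shown for the genes with the largest difference between groups and, beside each, a family window it was aligned with. Neither Ifi205 nor Ifi209 was aligned with any other window, so which relative is nearest was not tested. Each is written 5′ to 3′ on the strand of its gene from GRCm38.p6, with matches to the ISRE core in capitals. Ifi205 (chr1:174031706-174032005, minus strand) and Ifi211 (chr1:173912997-173913296, minus strand) were identical at 189 of 201 aligned bases. Ifi209 (chr1:173630609-173630908, plus strand) and Ifi214 (chr1:173535908-173536207, minus strand) were identical at 287 of 299 aligned bases.
Ifi205: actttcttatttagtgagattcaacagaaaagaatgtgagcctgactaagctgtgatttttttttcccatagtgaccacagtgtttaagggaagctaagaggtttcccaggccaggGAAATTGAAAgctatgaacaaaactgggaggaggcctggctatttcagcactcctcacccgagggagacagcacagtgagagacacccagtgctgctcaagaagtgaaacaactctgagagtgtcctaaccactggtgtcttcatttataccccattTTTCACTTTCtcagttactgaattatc
Ifi211: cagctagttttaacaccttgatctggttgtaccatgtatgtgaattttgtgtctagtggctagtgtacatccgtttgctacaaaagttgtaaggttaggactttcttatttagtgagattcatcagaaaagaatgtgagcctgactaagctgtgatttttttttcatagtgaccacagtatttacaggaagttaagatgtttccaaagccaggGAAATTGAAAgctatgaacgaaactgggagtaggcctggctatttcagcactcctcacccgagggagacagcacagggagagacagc
Ifi214: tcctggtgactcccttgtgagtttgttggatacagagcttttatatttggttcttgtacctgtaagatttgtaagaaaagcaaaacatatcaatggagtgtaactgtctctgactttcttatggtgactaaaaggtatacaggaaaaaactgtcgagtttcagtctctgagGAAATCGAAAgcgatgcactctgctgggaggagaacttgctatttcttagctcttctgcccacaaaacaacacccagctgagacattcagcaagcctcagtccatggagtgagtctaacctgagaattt
Ifi209: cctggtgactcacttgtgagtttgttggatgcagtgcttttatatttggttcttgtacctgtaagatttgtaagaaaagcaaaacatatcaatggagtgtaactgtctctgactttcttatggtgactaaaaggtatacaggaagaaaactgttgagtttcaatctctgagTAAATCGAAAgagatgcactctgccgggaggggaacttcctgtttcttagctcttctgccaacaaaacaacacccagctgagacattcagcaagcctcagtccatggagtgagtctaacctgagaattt

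In Ifi205 the core starts 134 bases before the start site and a further match lies 24 bases into the transcript, and in Ifi211 the core starts 37 bases before the start site. In Ifi214 it starts 79 bases before the start site. The capitals in the Ifi209 line mark the bases aligned to the core of Ifi214, TAAATCGAAA, which differ from it by G1T, counted from the 5′ end of the core. This change takes Ifi209 out of the search, and Ifi209 had no other match. Neither the window of Aim2 (chr1:173420354-173420653, plus strand) nor that of Ifi202b held the core.

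Ifi205 codes for the nuclear HIN protein p205 (transcript cluster 17230111). Its log2 values were 3.48, 2.31 and 2.86 in control replicates 1 to 3 and 5.27, 5.25 and 9.57 in LPS replicates 1 to 3. Every LPS array was above every control array, with LPS replicates 1 and 2 nearly equal and LPS replicate 3 far above both. Means were 2.89 ± 0.58 in controls and 6.70 ± 2.49 with LPS (SD, n = 3). The log2 fold change was 3.81 (SE 1.14) with a 95% interval from 1.09 to 6.54, and it did not pass over all rows (unadjusted p = 0.013, limma adjusted p = 0.52). By size it was number 21 of 41345 rows. The control mean lay under the background guide, so the fold rests on a control signal near background and may understate the change.

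Ifi209 (Pyhin1, transcript cluster 17219662) had control values of 1.56, 1.93 and 1.90. With LPS it stood at 2.65, 3.81 and 6.55 in replicates 1 to 3. The groups did not overlap, and the LPS arrays were spread over nearly the whole distance from background to a clear signal, with replicate 1 still below the guide of 3.08. The mean went from 1.80 ± 0.20 to 4.34 ± 2.00 (SD, n = 3), which is a difference of 2.54 (SE 0.90, unadjusted p = 0.027, limma adjusted p = 0.66). As all controls were near background, the fold of 5.81 may understate the change. It also leans on LPS replicate 3, and without that array the fold was 2.70.

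Ifi204 codes for p204, a DNA-binding relative of human IFI16 that can feed into STING signalling (transcript cluster 17230045). Controls read 7.55, 6.05 and 7.62 and LPS arrays 7.74, 8.56 and 8.95. The groups did not overlap, but the lowest LPS array exceeded the highest control by 0.12 log2 units, and control replicate 2 was 1.54 below the mean of the other controls. The log2 fold change was 1.34 (SE 0.50, unadjusted p = 0.032, limma adjusted p = 0.70), from 7.07 ± 0.89 to 8.41 ± 0.62 (SD, n = 3), or 2.53-fold. Without control replicate 2 it was 0.83, or 1.78-fold.

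Mnda and Ifi203 could be read only through shared rows. The row named for both Ifi211 (Mnda) and Ifi204 (transcript cluster 17230078) had control values of 7.63, 6.78 and 7.67 and LPS values of 8.49, 8.77 and 10.31. All LPS arrays were above all controls, by at least 0.82 log2 units, with replicate 3 again the highest. The log2 fold change was 1.83 (SE 0.51, unadjusted p = 0.0091, limma adjusted p = 0.47). How much of this signal came from each of the named genes cannot be told apart.

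The row named for Ifi203, LOC100862473 and the pseudogene Ifi203-ps (transcript cluster 17230087) read 4.56, 4.93 and 4.55 in controls and 5.05, 5.49 and 6.51 with LPS. These groups did not overlap either, the gap being 0.13. The log2 fold change was 1.01 (SE 0.37, unadjusted p = 0.030, limma adjusted p = 0.68). Family genes are close in sequence, so probes of a row named for 1 member may also bind transcripts of another. Probe sequences were not used here, and the share of such signal was not tested.

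Aim2, the DNA receptor of the AIM2 inflammasome (transcript cluster 17219643), was well above the background guide in all arrays. Its values were 7.43, 6.65 and 7.42 in controls and 7.10, 7.26 and 7.06 with LPS. The LPS values lay inside the range of the controls, which control replicate 2 set at its lower end. Means were 7.17 ± 0.45 and 7.14 ± 0.11 (SD, n = 3), which differ by -0.028 (SE 0.24, limma adjusted p = 1.00). The 95% interval from -0.59 to 0.54 spans both directions, so the data do not show that the level stayed the same. Without control replicate 2 the log2 fold change was -0.29, with an interval from -0.65 to 0.08.

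Ifi202b codes for p202, which has HIN domains but no pyrin domain and can hold AIM2 off DNA (transcript cluster 17230102). It read 1.55, 1.72 and 2.02 in controls and 1.90, 1.52 and 1.77 with LPS. All 6 values were below the background guide and the groups overlapped (log2 fold change -0.032, SE 0.18, limma adjusted p = 1.00). An expressed level was therefore not detectable in either group.

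**Figure D1:**
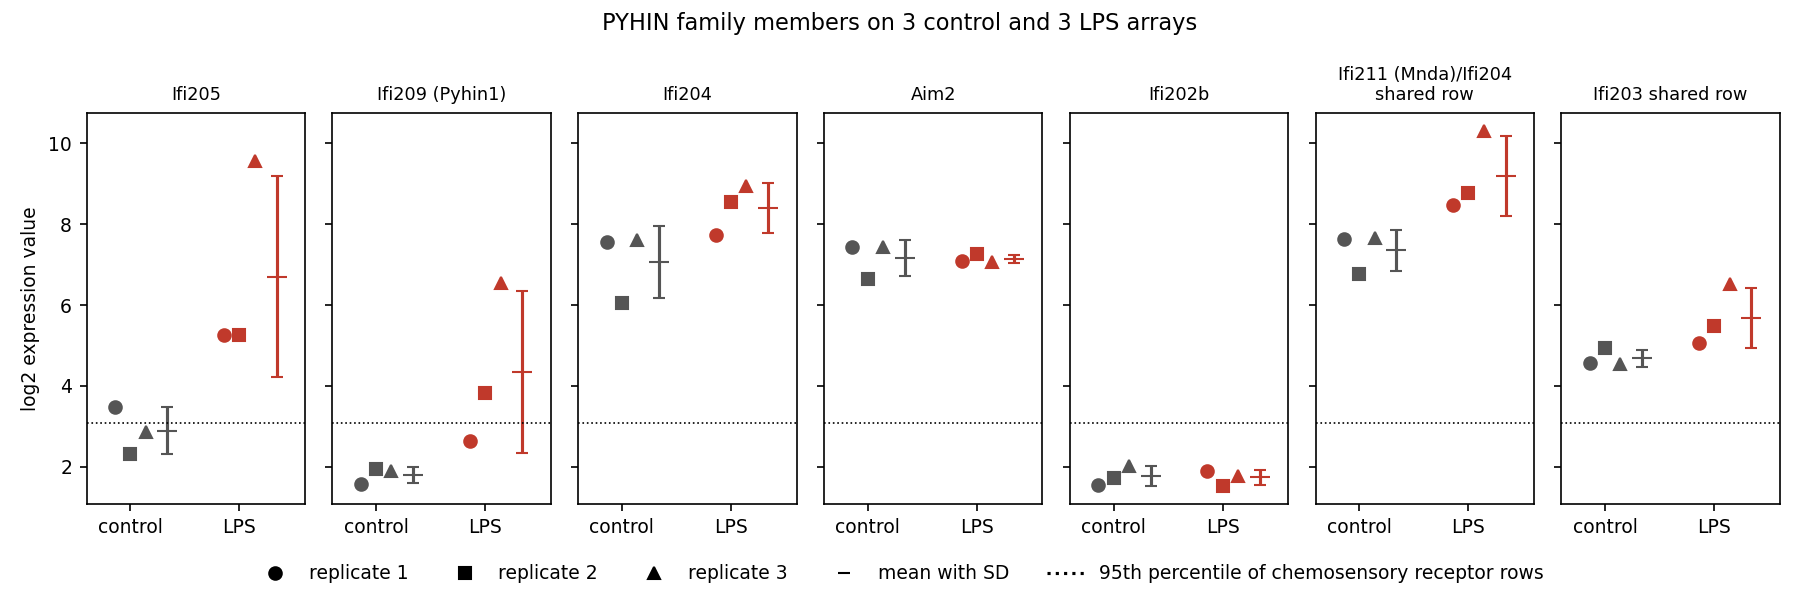
Log2 expression values (y axis) of the 5 members with a row of their own and of the 2 shared rows, for control (grey) and LPS (red) arrays; symbols give the replicate and bars the mean with SD of 3 arrays. LPS replicate 3 reads 9.57 for Ifi205 and 6.55 for Ifi209, far above the other LPS arrays, while Aim2 and Ifi202b overlap between groups.

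Over the 5 members with a row of their own, 0 were called higher and 0 lower at limma adjusted p under 0.05, where 0.193% of all 41345 rows were higher and 0 were lower. At an unadjusted p under 0.05, 3 members (Ifi205, Ifi209 and Ifi204) were higher and 0 lower, against 4.98% and 1.4% of all rows. Leaving out 1 array took limma's unadjusted p of Ifi204 to 0.058, 0.083 and 0.096 (without control replicate 2, LPS replicate 2 and LPS replicate 3) and that of Ifi209 to 0.072, 0.051 and 0.059 (without control replicates 1, 2 and 3). The same 3 members had every LPS array above every control array, as did 7.74% of all rows, and none had every LPS array below every control array, against 3.48%. The members' median log2 fold change was 1.34, beside 0.030 over all rows, and 3 of 5 members had a log2 fold change above 0, as did 55.8% of all rows. With 1 row taken per gene, 9.04% of genes had every LPS array above every control array. Among the 10893 genes above the background guide 1549 did, 67.6% had a log2 fold change above 0 and the median was 0.12. With the 2 shared rows added, 5 of 7 rows did not overlap between groups, an alternative chosen after the data were seen. As 1 of the shared rows also names Ifi204, the 7 rows may not stand for 7 separate genes.

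The rows of 6 further family genes differed among themselves. Mndal, a relative of Mnda, read 5.09, 4.58 and 4.77 in controls and 5.06, 5.53 and 6.50 with LPS, so its mean difference was 0.89 (SE 0.37, limma adjusted p = 0.77), with an overlap of 0.03 log2 units between LPS replicate 1 and control replicate 1. Ifi207 had 6.83, 6.12 and 6.86 in controls and 6.76, 6.66 and 7.75 with LPS, so that only LPS replicate 3 exceeded all controls (log2 fold change 0.45, SE 0.35, limma adjusted p = 0.98). The pseudogene Ifi203-ps overlapped fully, at 6.03, 5.92 and 6.54 against 5.90, 6.23 and 6.71. These rows were all above the background guide. The rows of Ifi208, Ifi213 and Ifi214 had means of 2.00, 1.84 and 1.57, below the guide, and log2 fold changes of 0.08, -0.01 and 0.09.

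The family genes are described here in their order along the chromosome, and whether genes with a signal lie together was not tested. Aim2 opens the cluster, followed by Ifi206, which had no row, and by Ifi214, Ifi213, Ifi209 and Ifi208. Of these last 4 neighbours Ifi209 had LPS values above its controls on every array, while the other 3 were at background in both groups. Ifi207, Ifi204, Ifi203-ps, Mndal, Ifi211 and Ifi203 follow, all with a signal in both groups, for Ifi211 and Ifi203 in shared rows. Ifi202b, at background, stands beside Ifi205, the member with the largest fold change. The 3 nearest protein-coding genes with a row before the cluster (Mptx2, Ackr1 and Cadm3) differed between groups by -0.29, 0.07 and 0.12 on the log2 scale, and the 3 olfactory receptor genes after it between -0.24 and 0.09. All 6 of these rows had means below the background guide, from 1.84 to 2.59, so they show nothing of whether a neighbour with a signal would differ.

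**Figure D2:**
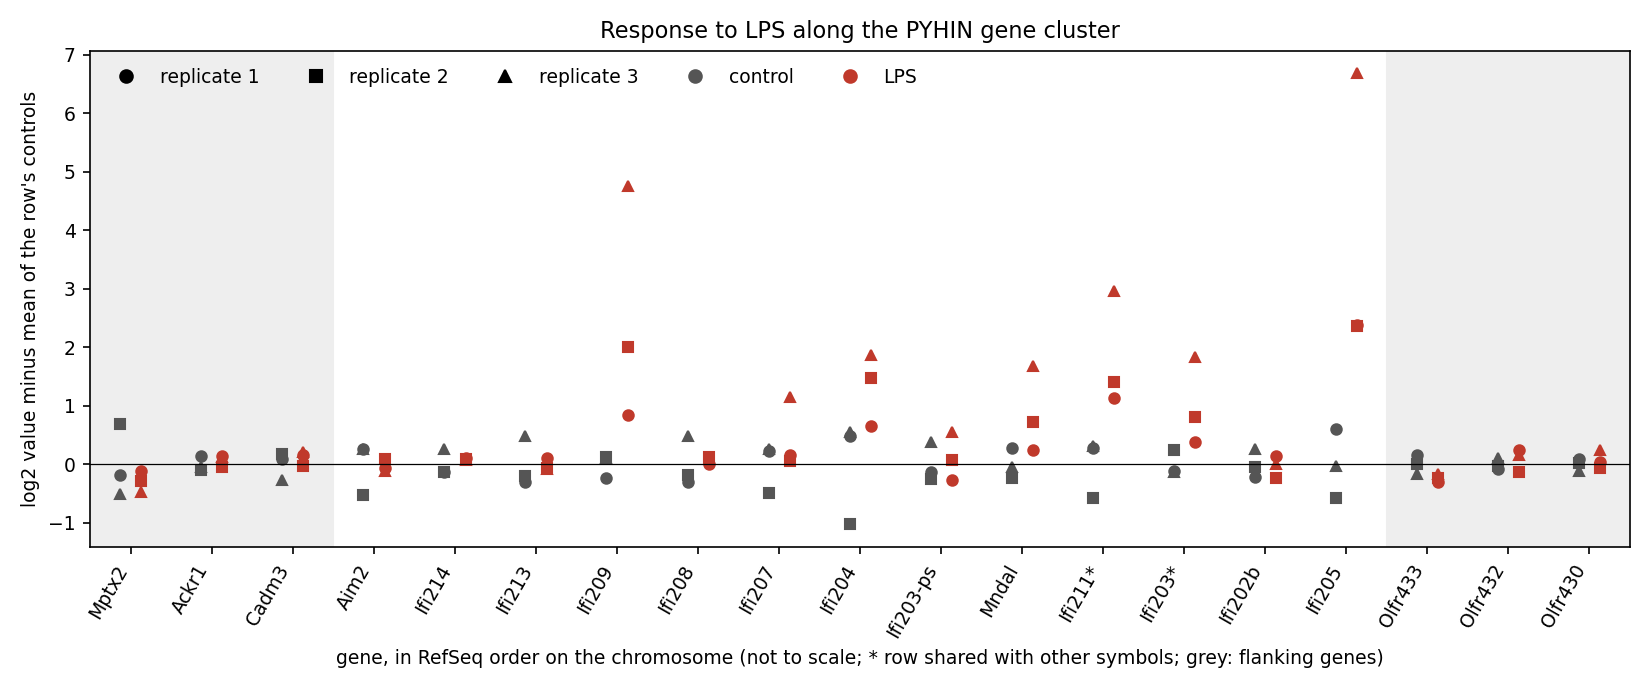
Each array's log2 value minus the mean of the row's controls (y axis) for family genes and 3 flanking genes per side, in RefSeq order (x axis, not to scale); grey points are controls, red points LPS, symbols the replicate, and asterisks rows shared by several symbols. Ifi205 and Ifi209 have the largest LPS values, with neighbours such as Ifi202b and Ifi208 close to 0.

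In Ifi205 and Ifi209, LPS replicate 3 differed from the other LPS arrays by more than the group means differed. Ifi205 was 4.31 log2 units, or 19.9-fold, higher in LPS replicate 3 than the mean of LPS replicates 1 and 2, which was number 1 of all 41345 rows. Ifi209 was 3.32 log2 units higher in that array, number 5 of all rows. The shared Ifi211 and Ifi204 row was 1.69 higher, the shared Ifi203 row 1.24, Mndal 1.21, Ifi207 1.04 and Ifi204 0.80. Aim2 went the other way by a small amount, at -0.12, and Ifi202b was at 0.06. Of the 13 family rows, 6 were at least 1 log2 unit higher in LPS replicate 3, against 4.75% of all rows, and LPS replicate 3 was the highest LPS array in 8 of 13, against 38.4% of all rows.

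Genes of interferon signalling deviated in the same array. Of 15 such genes with a row, LPS replicate 3 was the highest LPS array in 13, and their median excess was 1.33 log2 units, with 2.70 for the antiviral gene Ifit1 and 2.17 for the transcription factor Stat2, singled out after their values were seen. Among 11 macrophage or microglia markers it was the highest in 8, with a median excess of 0.33, and the median over all rows was 0.02. The part of this array's general deviation in the members' values was not tested.

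**Figure D3:**
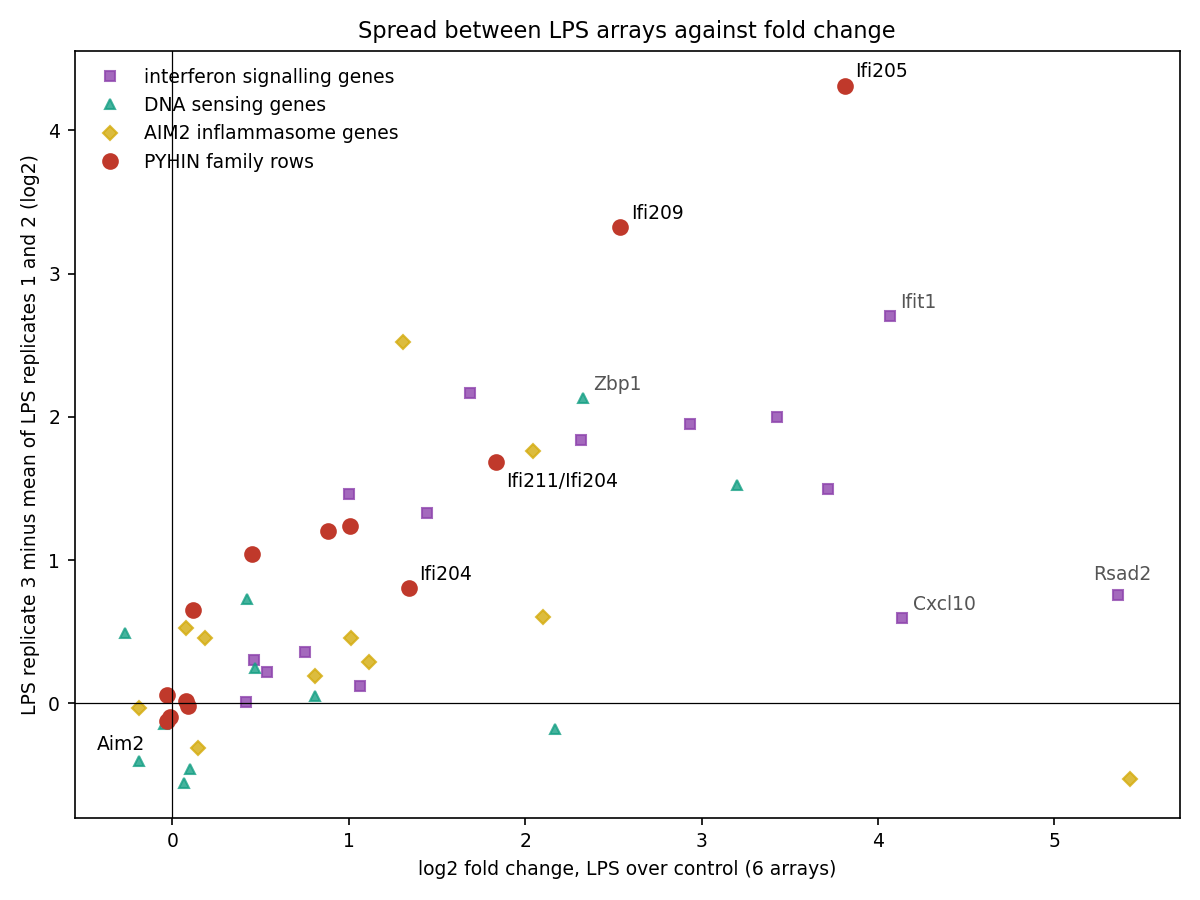
Excess of LPS replicate 3 over the mean of the other LPS replicates (y axis, log2) against the log2 fold change between groups (x axis) for 13 PYHIN rows and 3 gene lists; LPS replicate 3 enters both axes. Ifi205 (4.31) and Ifi209 (3.32) lie above every listed gene, while the 4 listed genes with a larger log2 fold change than Ifi205 (3.81) have an excess of -0.53 (Il1b), 0.76 (Rsad2), 0.59 (Cxcl10) and 2.70 (Ifit1).

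The log2 fold changes of Ifi205, Ifi209 and Ifi204 stayed above 0 with any single array left out, and their sizes moved, while those of Aim2 and Ifi202b, close to 0, changed sign in some fits. Without LPS replicate 3, the log2 fold change of Ifi205 was 2.37 (SE 0.34, limma adjusted p = 0.11), or 5.19-fold, and that of Ifi209 was 1.43 (SE 0.36, limma adjusted p = 0.36), or 2.70-fold. The same fit gave 1.27 for the shared Ifi211 and Ifi204 row and 0.48 for Mndal, or 1.40-fold. With control replicate 2 also left out, Ifi205 passed over all rows at 2.09 (SE 0.25, limma adjusted p = 0.042), and no other member did. These 2 arrays stand apart from their groups in the same values, so leaving both out narrows the spread, and only 2 arrays per group remain. That fit called more rows in general, 152 higher (0.368%) and 67 lower (0.162%) of 41345, against 80 and 0 with all arrays. In that fit Ifi204 had a log2 fold change of 0.56, Ifi209 had an interval from 0.52 to 2.48, and the median of the 5 members was 0.56. This was the only call among 68 fits of a member under an alternative.

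**Figure D4:**
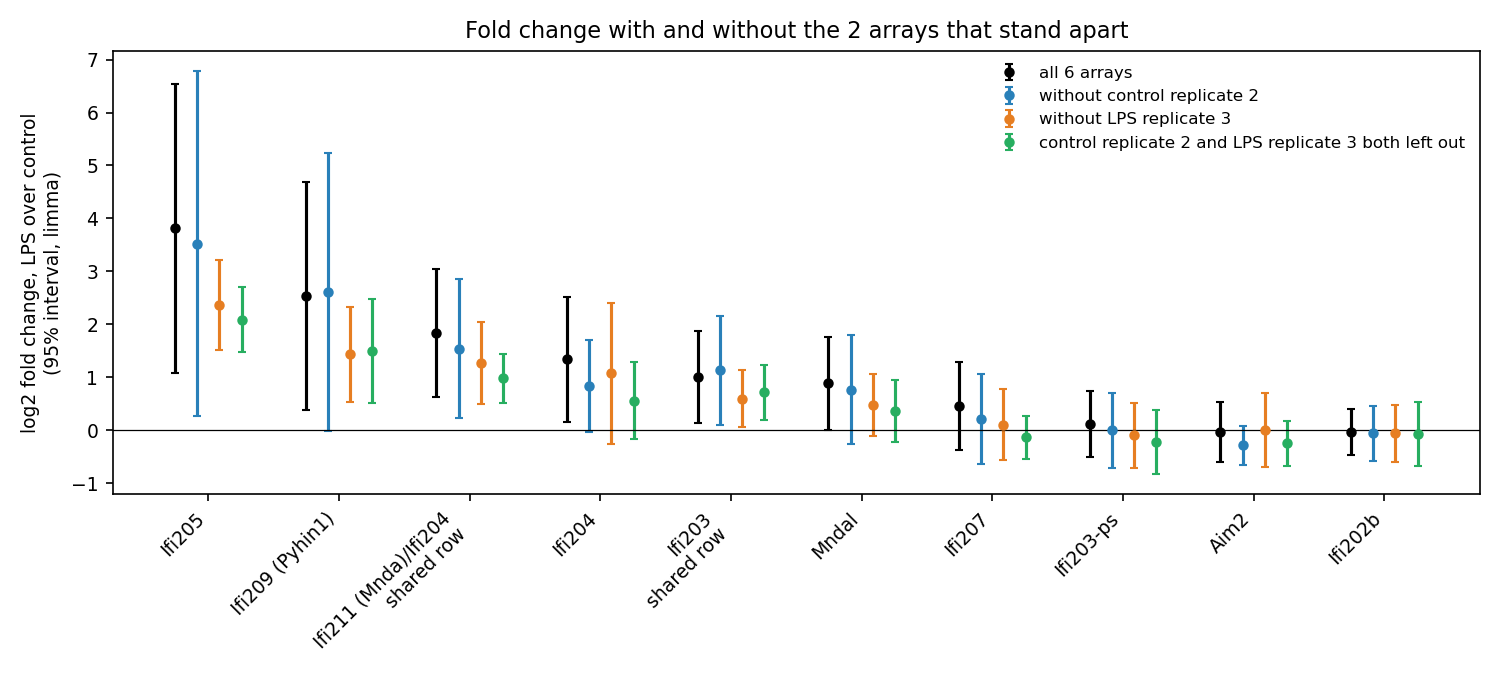
Log2 fold change of LPS over control with its 95% interval from limma (y axis) for family rows (x axis), with all 6 arrays and with control replicate 2, LPS replicate 3 or both left out. The interval of Ifi205 narrows around 2.37 without LPS replicate 3 and around 2.09 without both arrays, and those of Aim2 and Ifi202b span 0 in each fit.

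For the 3 members above the background guide, the most similar genes across the 6 arrays were named by Pearson's r among 10887 other genes above it. Each r rests on 6 arrays from the same RNA for every gene, and control replicate 2 and LPS replicate 3 deviate in many genes, so it is a description only. Ifi205 passed this filter only through its LPS arrays, as its control mean of 2.89 lay under the guide. Ifi205 was most like the copper transporter relative Slc31a2, the peptide transporter Tap1 and the class I-like gene H2-M3, with an r of 0.995, 0.995 and 0.995. Tap1 showed the same shape in its values, with controls at 6.34, 6.08 and 6.23 and LPS arrays at 6.89, 7.08 and 8.61. Ifi204 was most like Sec23b, Cdk9 and Tgif1, and Aim2 like Dtx3, Pxmp4 and Snap29, with an r between 0.998 and 0.999. Dtx3 had its lowest value in control replicate 2 as Aim2 did, at 4.32 against 5.55 and 5.49 in the other controls. The likeness of Tap1 and Dtx3 to these members was fixed by picking genes on r over the same arrays. Control replicate 2 was the lowest control in 71.3% of the genes above the guide.

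A list of genes linked to the AIM2 inflammasome, and not only parts of the complex, had 11 genes with a row, of 12 looked up. Of these 1 was called higher, 0 were lower and 10 did not pass, where 0.193% of all rows were called higher. The called gene was Il1b, the substrate of the inflammasome, higher by 5.43 log2 units (SE 0.39, limma adjusted p = 0.0073). The median log2 fold change was 1.01. The genes of this list named next were picked after their values were seen. The adaptor Pycard had 3.39 ± 0.13 and 3.20 ± 0.03 (SD, n = 3), close to the guide of 3.08, the protease Casp1 had 7.45 ± 0.54 and 8.46 ± 0.29 (limma adjusted p = 0.51), and the pore former Gsdmd 7.06 ± 0.79 and 7.25 ± 0.29 (limma adjusted p = 1.00).

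Of 14 genes of cytosolic DNA sensing looked up, 11 had a row, 1 was called higher (all rows: 0.193%) and 0 lower. It was the kinase Ikbke, which activates IRF3 (log2 fold change 2.17, SE 0.22, limma adjusted p = 0.030). The list's median was 0.42. Of 16 genes of interferon signalling looked up, 15 had a row, 3 were called higher and 0 lower. Of the 10893 genes above the background guide, 63 were called higher and 0 lower. The list's median was 1.69. Its log2 fold changes were above 0 in 15 of 15, against 55.8% of all rows and 67.6% of genes above the guide. Without LPS replicate 3 the list's median was 1.02. The list's called genes were the antiviral enzyme Rsad2 (5.36, SE 0.24, limma adjusted p = 0.0012), the chemokine Cxcl10 (4.14, SE 0.24, limma adjusted p = 0.0034) and Oasl2 (3.72, SE 0.44, limma adjusted p = 0.044). Ifnb1, singled out after its values were seen, was below the background guide in both groups, at 1.95 ± 0.06 and 1.90 ± 0.11 (SD, n = 3). The SD over LPS arrays was 2.49 for Ifi205, and over the 15 interferon signalling genes, called or not, it ran from 0.16 for Jak1 to 1.59 for Ifit1.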

How the data were processed

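The authors deposited 1 table of log2 values with a row per transcript cluster. The submitters' processing notes name Affymetrix Expression Console, the normalization method is not given in these sources, and the log2 scale was inferred from the range of values. Rows were named through platform annotation, which gave a single symbol to 23521 of 41345 rows, several symbols to 1814 and no symbol to 16010. LPS was compared with control in limma 3.58.1 (R 4.3.3; lmFit, eBayes) with no further normalization or filter, p-values adjusted by Benjamini-Hochberg over all rows and called under 0.05, a fit tested on simulated data. Promoter windows were aligned globally with Biopython 1.88. The members and gene lists were chosen with earlier results of these data known. The rule named all 7 members, other family rows, called genes of 3 lists and the 3 genes most similar to each member above the background guide, and genes named outside it are marked. Alternatives covered quantile normalization, median centring, dim rows left out, a single row per gene, robust estimation with an intensity trend, array weights, the replicate number as a block and arrays left out.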

Additional observations from a re-analysis of the deposited data

How the results depend on the processing

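No member was called in any of the planned fits except the fit without both control replicate 2 and LPS replicate 3, the arrays that stand apart in these values. In that fit the number called higher was 1 and the median log2 fold change 0.56. It called 152 rows of the whole table higher and 67 lower, against 80 and 0 with all arrays. With single arrays left out the median ran from 0.83 to 1.68. With the 2 shared rows added, 5 rows did not overlap between groups. Over all 13 family rows 5 did not, and the median was 0.45. Both alternatives were chosen after the data were seen, and both hold Ifi204 in a shared row besides its own. Over the whole table, 7.74% of rows had every LPS array above every control array and the median was 0.030. Some directions turned, and the cause was not tested. With single arrays left out, Aim2 ran from -0.29 to 0.10, Ifi202b from -0.14 to 0.10, Ifi203-ps from -0.10 to 0.31, Ifi208 from -0.078 to 0.32 and Ifi213 from -0.16 to 0.23. With both arrays left out Ifi207 was at -0.14, Ifi203-ps at -0.22 and Ifi208 at -0.021, and after quantile normalization Ifi203-ps was at -0.063. The labels do not say whether replicate numbers pair the arrays. Deviations from the group means correlated at 0.07, -0.26 and -0.22 for same-numbered arrays, and not every array correlated best with its own number. With 3 arrays per group these values cannot decide whether the arrays were paired. With the replicate block the number of rows called over the whole table was 7 higher in place of 80, the number of members called stayed at 0, and Ifi205 had an adjusted p = 0.68 in limma. The mean of several rows per gene was not run, as each member had 1 row. With dim rows left out, Ifi209 and Ifi202b gave no value.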

Other observations

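The exact run GAAATCGAAA was picked as the commonest core match in windows of the PYHIN family, of which 7 held it. It was present in 9 further promoter windows of the genome, and 6 of the genes at these had a row of their own. Of these 6, 1 was called higher after LPS, where 0.193% of all rows were. It was the cytoplasmic RNA sensor gene Ddx58, at 4.33, 4.43 and 4.48 in controls and 5.99, 6.37 and 6.77 with LPS (log2 fold change 1.96, SE 0.21, limma adjusted p = 0.036). Parp11 read 3.42, 3.46 and 3.71 in controls and 3.78, 3.68 and 4.59 with LPS, so the groups overlapped, and LPS replicate 3 was the highest in both genes. Pnrc1, Serpinb6a, Six3os1 and Adcyap1 had log2 fold changes of 0.26, 0.05, -0.18 and 0.03, and none passed. Within the family, rows of Ifi208, Ifi213 and Ifi214 were below the background guide on all arrays and their windows hold the same run. Ifi207, Mndal and Ifi203 (shared row) hold it too, had means of 6.83, 5.26 and 5.18, above the guide, and log2 fold changes of 0.45, 0.89 and 1.01. Ifi206, which also holds it, had no row, and Ifi209, with G1T at this place, was above the guide in LPS replicates 2 and 3. These genes were looked up after the promoter windows had been searched, and no link between the run and the values was tested.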
